A study of Sus scrofa with 20 samples.

Results

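This account follows 5 genes of the cytoskeleton through the testes of 20 boars: ACTN4 (ENSSSCG00000002965), ABLIM1 (ENSSSCG00000010651), CORO1B (ENSSSCG00000012920), DMTN (ENSSSCG00000009613) and VIM (ENSSSCG00000011033). They are 5 of 22059 genes listed in the counts of at least 1 breed, and all 5 are listed in every boar. ACTN4 and VIM were taken from the genes that the study found to differ with sperm DNA fragmentation in both breeds, ABLIM1 from its Landrace genes and CORO1B and DMTN from its Duroc genes. They were thus selected on their differences in read counts between boars with high and low fragmentation, and the difference of ABLIM1 between the breeds at low fragmentation was also part of the choice. Values from these contrasts are therefore described without a test. CORO1B and DMTN in Landrace, ABLIM1 in Duroc and the remaining comparisons between breeds were tested, although their boars were also in the contrasts that chose the genes.

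Actin filaments are held in bundles, branched networks and membrane-bound sheets by actin-binding proteins. In the testis they form the ectoplasmic specialization, the junction by which Sertoli cells hold the elongating spermatids, and the contractile apparatus of the peritubular myoid cells around the tubules. Vimentin is the intermediate filament protein of mesenchymal cells and is found in Sertoli, Leydig and endothelial cells, whereas germ cells hold little of it. ACTN4 is alpha-actinin 4, a crosslinker of actin filaments, ABLIM1 is an actin-binding LIM protein, CORO1B is a coronin that acts on branched actin, and DMTN is dematin, which bundles actin and belongs to the membrane skeleton of red blood cells.

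RNA came from whole testis tissue of Norsvin Landrace and Norsvin Duroc boars of an artificial insemination centre, with 1 library per boar, and boars are separate animals. The boars were picked for extreme values of the sperm DNA fragmentation index (DFI), the percentage of sperm DNA found denatured by acridine orange staining. By the labels, DFI lay between 0.62 and 1.7% in the Landrace low group (n = 5), between 5.58 and 8.04% in the Landrace high group (n = 4), between 1.05 and 1.13% in the Duroc low group (n = 5) and between 4.13 and 5.63% in the Duroc high group (n = 6). No treatment was given, and the age of the boars of each group is not given in the sources used here. Boars are numbered within their group.

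Between 18086448 and 51782156 reads per boar were counted on genes, and the smallest library was that of Landrace high 1. Levels are given as CPM, the reads of a gene scaled to the normalized total of its library, and genes are compared with themselves only, since gene lengths were not used. Spermatid markers such as PRM1 (3030 to 5450 CPM) and TNP1 (3110 to 5610 CPM) were abundant in every boar, so the tissue label held. Reads were counted without regard to strand, so reads of overlapping and antisense genes cannot be told apart. Landrace low 1 and 2 and the 4 Landrace high boars carry sample numbers of 1 series, while Landrace low 3, 4 and 5 and all Duroc boars carry other numbers. What the numbers stand for is not stated.

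All 5 genes were higher in the high than in the low DFI group of both breeds. A log2 fold change above 0 was found for 47.3% of 14519 genes tested in Landrace and 51.8% of 14666 in Duroc. The choice of the members largely fixes this direction, so nothing is read from it. The plot of member levels shows every boar.

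**Figure D1:**
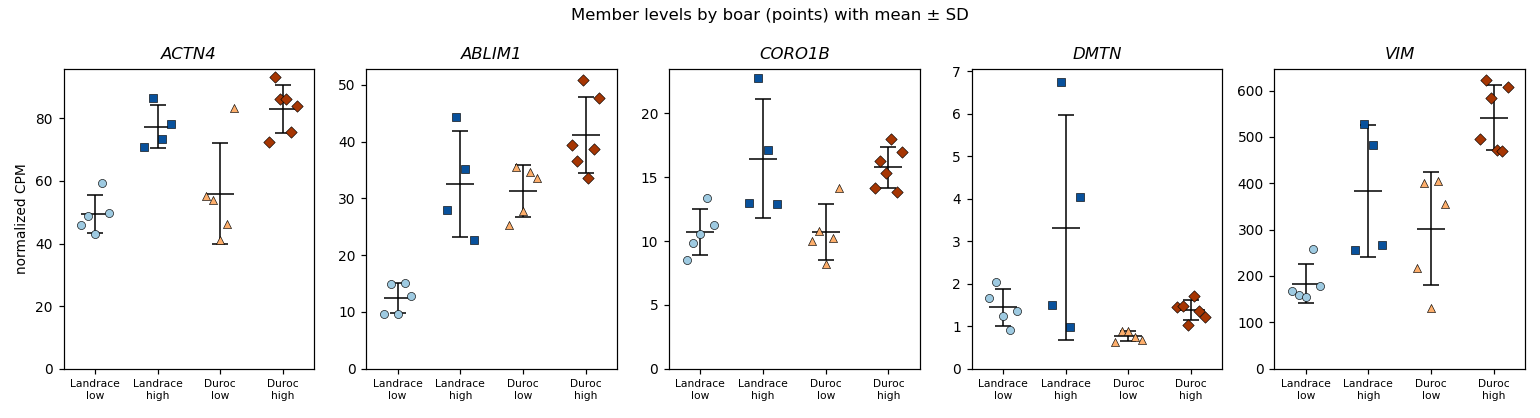
Normalized CPM (y axis, from 0, with a scale of its own for each gene) of the 5 genes in the 4 groups of boars (x axis). Points are boars, and bars are the mean ± SD (n = 5, 4, 5 and 6 from left to right). ABLIM1 lies between 9.61 and 15.1 CPM in the Landrace low boars and at 22.7 CPM or more in all others, and DMTN reaches 6.76 CPM in Landrace high 2.

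Of the crosslinkers, ACTN4 was measured with 1283 to 4152 reads per boar. In Landrace it was at 45.9, 48.8, 43.2, 59.3 and 49.8 CPM in low boars 1 to 5 and at 70.9, 86.5, 73.4 and 78.4 CPM in high boars 1 to 4. All high boars lay above all low boars. The means were 49.4 ± 6.14 CPM (SD, n = 5) and 77.3 ± 6.84 CPM (SD, n = 4), a log2 fold change of 0.65 (SE 0.10). Of all genes tested in Landrace, 4.6% were higher in every high than in every low boar, and 2 of the 5 members were (ACTN4 and ABLIM1), from which nothing is read because this contrast chose them. In bulk tissue, a change in the number of cells of a type and a change of RNA per cell cannot be told apart.

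In Duroc, ACTN4 was at 55.1, 54.1, 41.3, 46.3 and 83.3 CPM in low boars 1 to 5. The 6 high boars ran from 72.3 over a median of 85 to 93.3 CPM. Only Duroc low 5 reached into the high group, and the other low boars were at 55.1 CPM or less. The log2 fold change was 0.56 (SE 0.15) and was 0.75 without that boar. ACTN4 did not separate the breeds. Its log2 difference, Duroc minus Landrace, was 0.18 (SE 0.14, adjusted p = 0.541 in edgeR's quasi-likelihood test) at low DFI and 0.10 (SE 0.14, adjusted p = 0.717 in edgeR) at high DFI. By mean level the groups ran from Landrace low over Duroc low and Landrace high to Duroc high, and each neighbouring pair had overlapping values, with Duroc low 5 above 3 of the 4 Landrace high boars.

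ABLIM1 is the LIM protein of the group. Landrace low boars 1 to 5 had 9.7, 14.9, 9.61, 15.1 and 12.8 CPM. Landrace high boars 1 to 4 had 27.9, 44.3, 35.2 and 22.7 CPM. Duroc low boars 1 to 5 had 25.2, 35.6, 27.7, 34.7 and 33.5 CPM. The Landrace low boars stood apart from every other boar of the study, while the Duroc low boars lay within the range of the Landrace high boars. The 6 Duroc high boars had 33.5 to 50.8 CPM with a median of 39.1 CPM, and overlapped with the Duroc low boars in 1 narrow stretch, since Duroc high 4 (33.5 CPM) lay below Duroc low 2 and 4 and level with Duroc low 5.

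The Landrace means of ABLIM1 were 12.4 ± 2.69 CPM (SD, n = 5) at low and 32.5 ± 9.4 CPM (SD, n = 4) at high DFI, a log2 fold change of 1.39 (SE 0.21) or 2.62-fold. In Duroc they were 31.3 ± 4.59 CPM (SD, n = 5) and 41.2 ± 6.69 CPM (SD, n = 6), a log2 fold change of 0.39 (SE 0.13) or 1.31-fold. The choice of ABLIM1 did not use the Duroc DFI difference itself. The breed contrast named in the choice did use the Duroc low boars, so the test is not independent of the choice. The Duroc difference had an adjusted p of 0.134 in edgeR's quasi-likelihood test and 0.0938 in edgeR's likelihood ratio test (exact two-sided permutation test over 462 splits of the boars, p = 0.0173). It missed the adjusted threshold of 0.05, which 0.0136% of the genes tested in Duroc passed (2 genes, with 21.2% at an unadjusted p under 0.05). The likelihood ratio test called 2.56% of them.

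Between the breeds at low DFI, ABLIM1 was 2.52-fold higher in Duroc, a log2 difference of 1.33 (SE 0.18). It was higher in each of the 5 Duroc than in each of the 5 Landrace boars, which holds for 2.66% of 14636 genes. This difference was named in the choice and carries no test. It was 1.32 (SE 0.21) against the 3 Landrace low boars of the other sample numbers, and between 1.25 and 1.41 with each low boar left out. At high DFI the log2 difference was 0.34 (SE 0.18), with an adjusted p of 0.266 in edgeR's quasi-likelihood test. The log2 fold change with DFI was smaller in Duroc than in Landrace by a difference of -0.996 (SE 0.25). No p is given for it, since it holds the contrasts that chose the gene, and 0% of 14636 genes passed the adjusted threshold for such a difference (2.49% at an unadjusted p under 0.05, and 0.0137%, or 2 genes, in edgeR's likelihood ratio test).

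**Figure D2:**
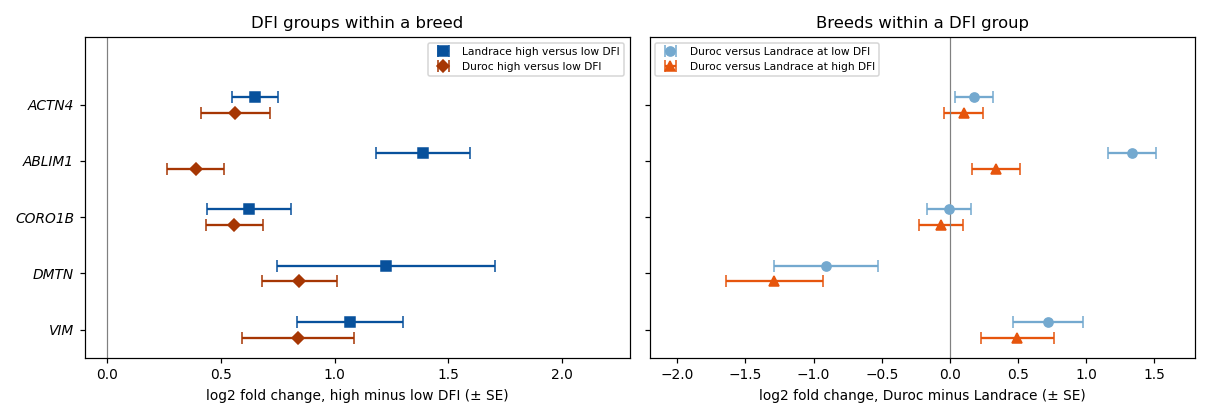
Log2 fold changes (x axis) of the 5 genes (y axis), with bars of 1 SE, for high minus low DFI within a breed (left) and Duroc minus Landrace within a DFI group (right). The Landrace and Duroc symbols of ABLIM1 lie at 1.39 and 0.39 on the left, and its low DFI symbol at 1.33 on the right, while CORO1B lies at about 0 on the right.

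CORO1B, the coronin, was at the same mean level in both breeds. Landrace low boars 1 to 5 had 8.54, 9.81, 10.6, 13.4 and 11.2 CPM. Landrace high boars 1 to 4 had 13, 22.8, 17.1 and 12.9 CPM. The groups met at their edges, with Landrace low 4 above high boars 1 and 4, and Landrace high 2 stood well above all others. The log2 fold change was 0.62 (SE 0.19). It did not pass edgeR's quasi-likelihood test (adjusted p = 0.129), which called 0% of the genes tested in Landrace (16.6% at an unadjusted p under 0.05). It passed edgeR's likelihood ratio test (adjusted p = 0.0421), which called 5.28% (767 genes). The study, also with a likelihood ratio test, reported fewer genes in Landrace and gave CORO1B for Duroc only.

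The exact two-sided permutation test over 126 splits gave p = 0.0317 for CORO1B in Landrace. Without Landrace high 2 its log2 fold change was 0.42 (adjusted p = 0.351 in edgeR). Duroc low boars 1 to 5 had 10, 10.8, 8.16, 10.3 and 14.2 CPM, and the 6 high boars 13.9 to 18 CPM with a median of 15.8 CPM. Duroc low 5, the boar with the high ACTN4 value, was the one low boar within the high group. The Duroc log2 fold change was 0.56 (SE 0.13). Between the breeds, CORO1B differed by -0.00 (SE 0.16, adjusted p = 0.996 in edgeR) at low and by -0.06 (SE 0.16, adjusted p = 0.853 in edgeR) at high DFI.

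DMTN, dematin, was the member with the fewest reads, 25 to 291 per boar, and the widest range, 10.8-fold over the 20 boars. Landrace low boars 1 to 5 had 1.66, 2.03, 1.25, 0.907 and 1.35 CPM. Landrace high boars 1 to 4 had 1.49, 6.76, 0.988 and 4.04 CPM. High boars 2 and 4 were above every low boar, while high boars 1 and 3 lay among them. The log2 fold change was 1.23 (SE 0.48), with an adjusted p of 0.229 in edgeR's quasi-likelihood test and 0.0703 in edgeR's likelihood ratio test (exact permutation test, two-sided, p = 0.214). Without Landrace high 2 it was 0.62 (adjusted p = 0.657 in edgeR).

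In Duroc, DMTN was at 0.628, 0.888, 0.883, 0.741 and 0.68 CPM in low boars 1 to 5 and at 1.02 to 1.72 CPM in the 6 high boars, with a median of 1.41 CPM. All high boars lay above all low boars. The log2 fold change was 0.84 (SE 0.17). Of the genes tested in Duroc, 1.9% separated the groups in this direction, and 2 of the 5 members did (DMTN and VIM), from which nothing is read since this contrast chose them. DMTN passed the filter on low values in Duroc through the 6 high boars alone, so that a member with a low group under 1 CPM could only be tested there if it differed.

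Mean dematin levels were lower in Duroc than in Landrace at both levels of DFI. At low DFI all 5 Duroc boars lay below all 5 Landrace boars, as 3.25% of 14636 genes did. The nearest of them, Landrace low 4 (0.907 CPM) and Duroc low 2 (0.888 CPM), had 41 reads each. Their order thus rests on the scaling of the libraries. DMTN failed the filter on low values in a fit of the 10 low boars alone. The log2 difference of -0.91 (SE 0.38) had an adjusted p of 0.19 in edgeR's quasi-likelihood test, and the exact two-sided permutation test gave p = 0.00794, the smallest that this design allows. Against the 3 Landrace low boars of the other sample numbers it was -0.61 (SE 0.44, adjusted p = 0.606 in edgeR).

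At high DFI the difference of DMTN was -1.29 (SE 0.36), and it was the single member to pass edgeR's quasi-likelihood test between breeds (adjusted p = 0.0382). Of all genes, 5.73% passed there, 2.85% with the lower level in Duroc. Landrace and Duroc boars overlapped, and an exact permutation test (two-sided) gave p = 0.114. With each of the 10 high boars left out in turn, the adjusted p in edgeR was between 0.0058 and 0.244 and under 0.05 in 3 of 10 fits. Without Landrace high 2 the difference was -0.68 (adjusted p = 0.244 in edgeR), and in a fit of the 10 high boars alone it was -1.28 (adjusted p = 0.119 in edgeR). All Landrace high boars carry sample numbers of another series than the Duroc boars, so breed and number series cannot be told apart at high DFI.

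The red cell markers did not all have the same order of levels in the breeds. The summed level of HBB, HBM, ALAS2 and SLC4A1 was 2.22 to 18.6 CPM in Landrace low, 4.73 to 20.7 CPM in Landrace high, 1.91 to 3.86 CPM in Duroc low and 2.36 to 5 CPM in Duroc high boars. HBB, a haemoglobin chain, was lower in Duroc by a log2 difference of -2.62 (SE 0.53, adjusted p = 0.00657 in edgeR) at low DFI and of -2.90 (SE 0.51, adjusted p = 0.00254 in edgeR) at high DFI. The sum consists mostly of HBB. HBM did not exceed 0.442 CPM and ALAS2 0.829 CPM in any boar. SLC4A1, the red cell anion exchanger, had the opposite order of levels, with 0.0501 ± 0.039 CPM (SD, n = 5) in Landrace low and 0.175 ± 0.187 CPM (SD, n = 4) in Landrace high against 1.19 ± 0.521 CPM (SD, n = 5) in Duroc low and 1.29 ± 0.629 CPM (SD, n = 6) in Duroc high boars. It passed the filter on low values in Duroc alone, was not tested between the breeds, and was at the lowest listed value in 4 boars. Landrace high 2 had the highest sum together with the highest DMTN level, while Landrace high 4, with 4.04 CPM of DMTN, had a sum of 4.73 CPM and Landrace low 1, with 1.66 CPM of DMTN, one of 18.6 CPM. Among boars of the same group, DMTN and the red cell sum had r = -0.121 (permutation test, adjusted p = 0.876). The part of red cells in the DMTN differences between groups was not tested.

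VIM, the intermediate filament gene, was measured with 4633 to 25800 reads per boar. Landrace low boars 1 to 5 had 168, 159, 154, 258 and 178 CPM. Landrace high boars 1 to 4 had 256, 529, 482 and 268 CPM. The groups barely overlapped, since Landrace high 1 was just below Landrace low 4, and the high group fell into a lower pair (boars 1 and 4) and an upper pair (boars 2 and 3). The means were 183 ± 42.5 CPM (SD, n = 5) and 384 ± 142 CPM (SD, n = 4), a log2 fold change of 1.07 (SE 0.23).

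Duroc low boars 1 to 5 had 218, 401, 131, 404 and 355 CPM of VIM, and the 6 high boars 469 to 623 CPM with a median of 540 CPM. The Duroc groups did not overlap, although the low group spanned from the lowest value of all 20 boars to 404 CPM. The log2 fold change was 0.84 (SE 0.25). Between the breeds at low DFI, VIM differed by 0.72 (SE 0.26), with an adjusted p of 0.121 in edgeR's quasi-likelihood test and 0.0398 in edgeR's likelihood ratio test (exact two-sided permutation test, p = 0.0952). With each low boar left out in turn, its adjusted p in edgeR was between 0.023 and 0.253. It was under 0.05 in 1 of 10 fits, the one without Duroc low 3, the boar at 131 CPM (difference 0.91). Without Duroc low 4 the difference was 0.59. At high DFI it was 0.50 (SE 0.27, adjusted p = 0.277 in edgeR, exact two-sided permutation test p = 0.0476).

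None of the 4 members tested between breeds at low DFI passed edgeR's quasi-likelihood test, which called 4.92% of 14636 genes, and 1 of them, VIM, passed edgeR's likelihood ratio test, which called 5.27%. Within the 6 Landrace boars of 1 number series (2 low and 4 high), the log2 fold changes with DFI were 0.72 (SE 0.12) for ACTN4, 1.41 (SE 0.30) for ABLIM1, 0.85 (SE 0.26) for CORO1B, 0.87 (SE 0.71) for DMTN and 1.24 (SE 0.32) for VIM. The 3 other Landrace boars are all low. The difference between the breeds' log2 fold changes, Duroc minus Landrace, was -0.08 (SE 0.20) for ACTN4, -0.06 (SE 0.23) for CORO1B, -0.38 (SE 0.53) for DMTN and -0.22 (SE 0.37) for VIM.

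Members were chosen for differences between groups, so their variation among boars of the same group is a separate measure. Log2 CPM values (0.5 CPM added) were centred on the group means and correlated over the 20 boars, with permutations within groups. Of the 10 pairs, 3 passed after adjustment. How often pairs of other genes pass was not tested, so the 3 cannot be called particular to the members. ACTN4 and CORO1B varied together from boar to boar (Pearson r = 0.738, permutation p = 0.00036, adjusted p = 0.0036; Spearman rho = 0.671, permutation p = 0.00277), with r = 0.688 over the 9 Landrace and 0.897 over the 11 Duroc boars. Without the 2 boars farthest from the median ACTN4 level, Duroc low 3 and 5, r was 0.623.

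ABLIM1 and VIM were correlated at r = 0.676 (permutation p = 0.00142, adjusted p = 0.0071) and rho = 0.723 (permutation p = 0.00087), with 0.779 in Landrace, 0.633 in Duroc and 0.608 without the 2 farthest boars. CORO1B and VIM reached r = 0.734 (permutation p = 0.00372, adjusted p = 0.0124) and rho = 0.687 (permutation p = 0.00852), with 0.89 in Landrace, 0.629 in Duroc and 0.708 without the 2 farthest boars. The last pair missed the adjusted threshold without Landrace low 4 (permutation test, adjusted p = 0.0674) or Duroc low 3 (permutation test, adjusted p = 0.0617). Within the 6 boars of the Landrace number series the 3 pairs had r = 0.76, 0.747 and 0.897, and within the other 14 boars 0.885, 0.668 and 0.669.

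None of the 4 pairs of DMTN with another member passed. The correlations of DMTN were between -0.0367 (with VIM) and 0.127 (with CORO1B), and each changed sign when 1 boar was left out. DMTN had as few as 25 reads in a boar, so counting noise could hide a correlation. These values thus do not show that DMTN varied apart from the other members. ABLIM1 and CORO1B (r = 0.603, permutation test, adjusted p = 0.0538), ACTN4 and VIM (r = 0.527, adjusted p = 0.215) and ACTN4 and ABLIM1 (r = 0.319, adjusted p = 0.233) did not pass.

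**Figure D3:**
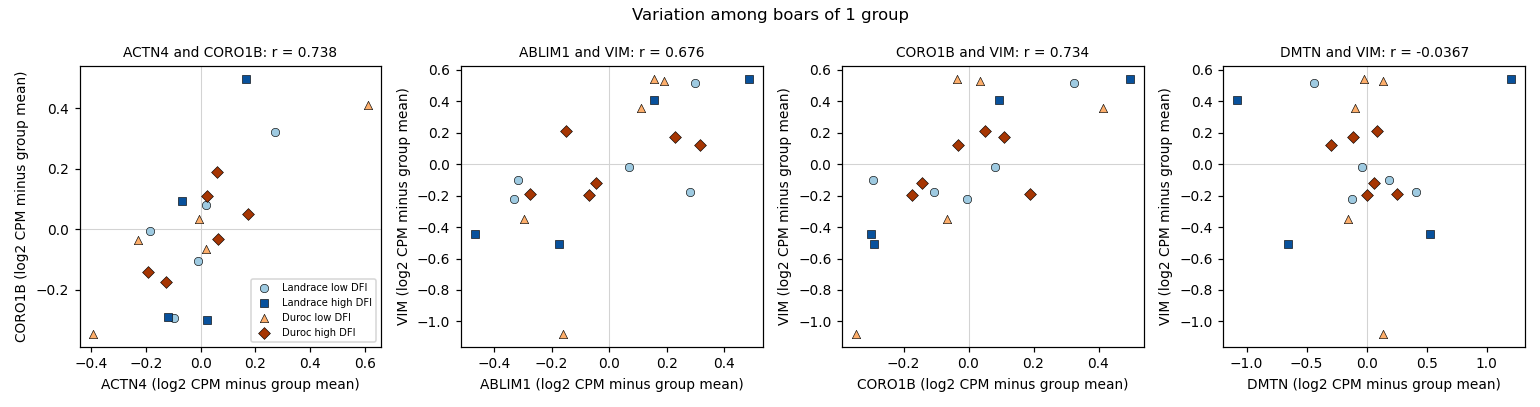
Log2 CPM minus the group mean for 4 pairs of genes, with 1 point per boar and symbols for the 4 groups. The first 3 panels are the pairs that passed (r = 0.738, 0.676 and 0.734), with points along a rising diagonal, and DMTN and VIM (r = -0.0367) show no slope, with the Landrace high boars spread widest along the DMTN axis.

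Summed markers of the cell types of the testis stand beside these values. Summed Leydig cell markers (CYP11A1, CYP17A1, HSD17B3, INSL3 and LHCGR) were at 1330 to 4200 CPM in Landrace low, 4580 to 12000 CPM in Landrace high, 859 to 6010 CPM in Duroc low and 3430 to 7060 CPM in Duroc high boars. Peritubular myoid markers ran from 88.8 to 161, 157 to 261, 100 to 191 and 124 to 251 CPM in the same order of groups, and endothelial markers from 27.5 to 48.4, 38.9 to 91.2, 23.8 to 62.5 and 49 to 80.6 CPM. Sertoli cell markers, at 336 to 419, 328 to 425, 359 to 421 and 350 to 620 CPM, overlapped in all groups. Spermatid markers were at 13900 to 18000, 12100 to 16300, 14500 to 19100 and 10800 to 15400 CPM.

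None of the marker genes passed edgeR's quasi-likelihood test with DFI in either breed. At an unadjusted p under 0.05, 4 of 5 Leydig, 5 of 6 myoid, 2 of 3 endothelial and 2 of 3 macrophage markers were higher in Landrace high boars, and 2, 1, 1 and 1 of them in Duroc high boars. Of the Sertoli markers 1 of 8 was higher in Landrace. Over all genes tested, 12.1% were higher and 4.53% lower in Landrace and 11.3% and 9.89% in Duroc at that p. None of the 9 spermatid markers had a log2 fold change above 0 in either breed, and 3 in Landrace and 6 in Duroc were lower at an unadjusted p under 0.05, as were 2 of 5 spermatocyte markers in each breed. In edgeR's likelihood ratio test the numbers of Leydig, myoid, endothelial and macrophage markers that were higher were 4, 3, 2 and 2 in Landrace (5.14% of all genes) and 2, 0, 0 and 1 in Duroc (2% of all genes), and 1 spermatid marker, CAPZA3, was lower in Duroc. The study had already reported CYP11A1 and CSF1R in both breeds, ACTA2 in Landrace and CAPZA3 in Duroc from the same boars. Macrophage markers summed to 2.77 to 10.24 CPM, spermatogonium markers to 44 to 85.9 CPM and spermatocyte markers to 738 to 968 CPM over the 20 boars. Between the breeds, 1 of 8 Sertoli markers (GATA4) and 1 of 5 spermatogonium markers (KIT) passed edgeR's quasi-likelihood test at both levels of DFI. So did HBB, the 1 red cell marker tested. At low DFI 1 of 5 spermatocyte markers (SPO11) passed too. None of the Leydig, myoid, endothelial, macrophage and spermatid markers passed. Over all genes tested, 4.92% passed at low and 5.73% at high DFI.

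Landrace high 2 had the highest level of each of the 5 members in its group, and the highest Leydig, myoid, endothelial and macrophage sums of all 20 boars. Without it the Landrace log2 fold changes were 0.59 for ACTN4, 1.20 for ABLIM1 and 0.87 for VIM.

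Among boars of the same group, VIM followed the Leydig markers most closely of 45 pairs of a member and a marker list, a comparison added after the data had been seen. Its r was 0.874 (permutation p = 1e-05, the smallest that the resamples can give, adjusted p = 0.00045) and rho 0.89 (permutation p = 2e-05), with 0.752 in Landrace, 0.939 in Duroc and 0.791 without the 2 farthest boars. Duroc low 3, with the lowest VIM level of all, also had the lowest Leydig sum (859 CPM). ABLIM1 was correlated with the same markers at r = 0.698 (permutation test, adjusted p = 0.0048; rho = 0.762; 0.815 in Landrace and 0.676 in Duroc). Since the Leydig sum is mostly CYP17A1 and INSL3, these values do not speak for each Leydig marker. Correlations with single markers were not tested.

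ACTN4 and CORO1B were correlated with other lists. ACTN4 was correlated with the myoid markers at r = 0.76 (permutation test, adjusted p = 0.00315; 0.938 in Landrace and 0.715 in Duroc) and with the endothelial markers at 0.749 (permutation test, adjusted p = 0.00754). CORO1B was correlated with them at 0.638 (permutation test, adjusted p = 0.0382) and 0.745 (permutation test, adjusted p = 0.00963). Both ran against the spermatid markers, at -0.579 for ACTN4 and -0.69 for CORO1B (permutation tests, adjusted p = 0.042 and 0.0156). By rank, rho for ACTN4 was 0.774, 0.656 and -0.696 with the myoid, endothelial and spermatid markers (permutation tests, adjusted p = 0.00525, 0.0402 and 0.0219). For CORO1B rho was 0.675 with the endothelial markers (permutation test, adjusted p = 0.0369), while 0.55 with the myoid and -0.636 with the spermatid markers did not pass (permutation tests, adjusted p = 0.117 and 0.0501). In all, 8 of the 45 pairs passed by r and 6 of them also by rho, none of them with DMTN or with Sertoli, macrophage, red cell, spermatocyte or spermatogonium markers. Each of the 8 kept its sign within each breed and within each number series. How often other genes pass with these marker lists was not tested. The levels and the sums come from the same library and share its normalization, and the part of cell numbers in the DFI differences of the members was not tested.

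**Figure D4:**
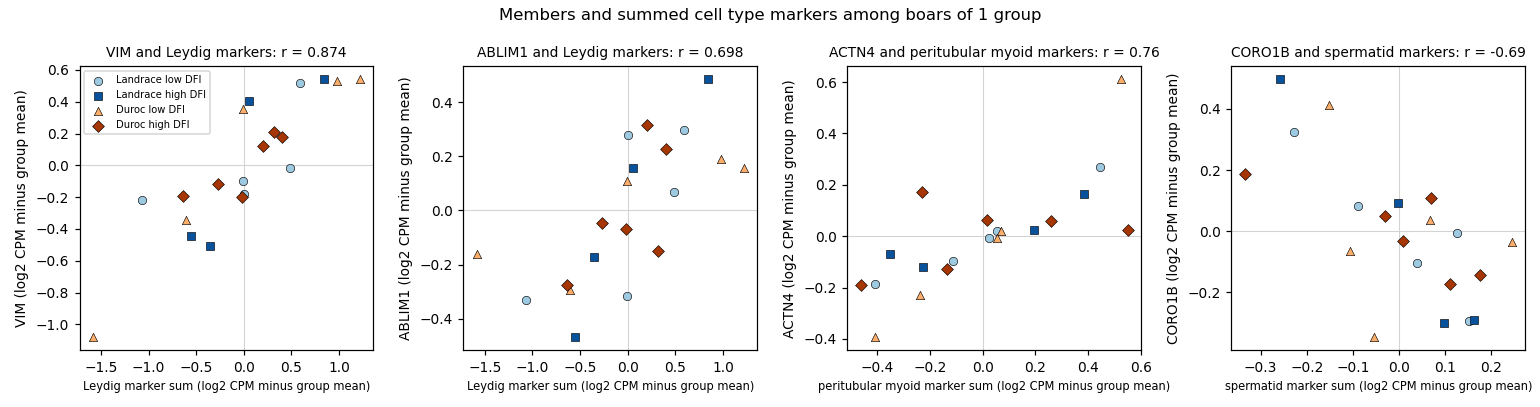
Log2 CPM of a member (y axis) against the log2 of the summed CPM of a marker list (x axis), both minus the group mean, with 1 point per boar. VIM (r = 0.874) and ABLIM1 (r = 0.698) rise with the Leydig markers, ACTN4 rises with the peritubular myoid markers (r = 0.76), and CORO1B falls with the spermatid markers (r = -0.69).

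The genes most like each member over all 20 boars, by Pearson r of log2 CPM among 9573 named genes, are given as a description, since all 20 boars carry the group differences that chose the members. Closest to CORO1B were UNC45A, a myosin chaperone (r = 0.974), FCGRT, the neonatal Fc receptor (0.966), and XPC, a DNA damage recognition protein (0.963). VIM was matched by the lysosomal enzymes MAN2B1 (0.926) and IDS (0.919) and by the mitochondrial folate enzyme ALDH1L2 (0.912). ACTN4 was matched by the deacetylase HDAC10 (0.924) and the transcription factors TBX2 (0.924) and STAT5A (0.92).

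ABLIM1 was less closely matched, by the aldehyde dehydrogenase ALDH1B1 (0.884), the receptor adaptor GRB10 (0.879) and SEPTIN8, a septin of the cytoskeleton (0.875). ALDH1B1 was at 1.65 ± 0.429 CPM (SD, n = 5) in Landrace low, 3.15 ± 1.52 CPM (SD, n = 4) in Landrace high, 3.39 ± 0.871 CPM (SD, n = 5) in Duroc low and 5.01 ± 0.655 CPM (SD, n = 6) in Duroc high boars. Its lowest and highest means were in the same groups as those of ABLIM1. DMTN had the most distant neighbours: PPP1R15B, a regulator of translation under stress (0.845), FICD, an enzyme that modifies a chaperone of the endoplasmic reticulum (0.839), and FAIM, an inhibitor of apoptosis (0.801), with Spearman rho of 0.741, 0.592 and 0.632.

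Other actin-binding genes and genes of the spectrin skeleton were examined as 1 list. It held actinins, filamins and other crosslinkers, LIM proteins, coronins, tropomyosins, profilins, and capping and severing proteins. Subunits of the Arp2/3 complex, membrane linkers and the spectrin skeleton were also in it, and 50 of its genes were tested. In Landrace 33 of the 50 had a log2 fold change above 0, with a median of 0.08 against -0.01 over all genes tested, and in Duroc 28 of 50, with 0.05 against 0.01. None passed edgeR's quasi-likelihood test in either breed (12 higher and 2 lower in Landrace and 7 higher and 4 lower in Duroc at an unadjusted p under 0.05). Over all genes tested, 1760 of 14519 were higher and 657 lower in Landrace at that p, and 1656 of 14666 higher and 1451 lower in Duroc. In edgeR's likelihood ratio test 8 were higher in Landrace (746 of all genes), and in Duroc 2 were higher (VCL and TPM4, with 293 of all genes) and 1 lower (CAPZA3, with 83 of all genes). The other 4 coronins tested had log2 fold changes in Landrace and Duroc of -0.03 and -0.04 for CORO1C, -0.24 and -0.13 for CORO2A, 0.38 and 0.15 for CORO2B, and 0.33 and 0.10 for CORO7, and none passed (the smallest adjusted p was 0.163 in edgeR's quasi-likelihood test, for CORO2B in Landrace).

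The smallest p in Landrace belonged to the tropomyosins, which line actin filaments, and to vinculin. TPM4 was at 14.8 ± 3.14 CPM (SD, n = 5) in low and 32.6 ± 15 CPM (SD, n = 4) in high boars, with a log2 fold change of 1.14 (SE 0.26, adjusted p = 0.0984 in edgeR). TPM2 had 1.06 (SE 0.25), VCL, which anchors filaments to the membrane, 0.46 (SE 0.11) and TPM1 0.44 (SE 0.12), with adjusted p between 0.1 and 0.111 in edgeR. In Duroc VCL had 0.47 (SE 0.12), TPM4 0.71 (SE 0.22), PFN1, a profilin that binds actin monomers, 0.35 (SE 0.11) and CAPZA3, the capping protein subunit of germ cells, -0.37 (SE 0.10), with adjusted p between 0.113 and 0.13 in edgeR. CAPZA3 is also in the spermatid marker list. From the same boars, the study had already reported TPM4 in both breeds and CAPZA3 as lower in Duroc.

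**Figure D5:**
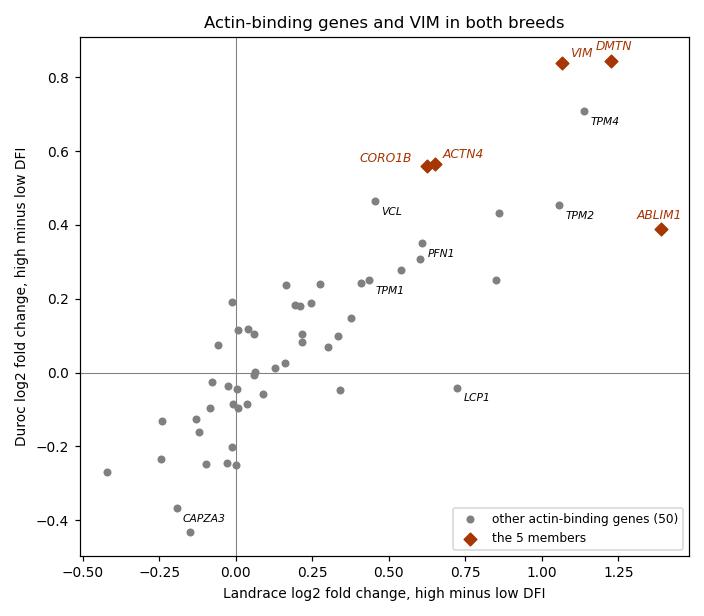
Log2 fold change, high minus low DFI, in Landrace (x axis) against Duroc (y axis) for the 5 members (diamonds) and 50 other genes (grey points). The grey points are actin-binding and spectrin skeleton genes. Of the 50, 26 lie above 0 in both breeds and 15 below 0 in both, TPM4 lies among the members, and ABLIM1 lies far to the right for its Duroc value.

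Between the breeds, 1 of the 50 passed edgeR's quasi-likelihood test at low DFI (4.92% of all genes tested), the membrane linker TLN1 (0.27, SE 0.07, adjusted p = 0.04 in edgeR). At high DFI, where 5.73% of all genes passed, the list had 3: ARPC1A (0.39, SE 0.11, adjusted p = 0.0495 in edgeR) and ARPC3 (-0.33, SE 0.09, adjusted p = 0.0436 in edgeR), both subunits of the Arp2/3 complex, and LCP1, a crosslinker of white blood cells (-0.63, SE 0.17, adjusted p = 0.0388 in edgeR).

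Of the other intermediate filament genes, 6 were tested with DFI in Landrace and 7 in Duroc, and none passed edgeR's quasi-likelihood test (DES in Landrace and LMNA in Duroc were higher at an unadjusted p under 0.05, and none in edgeR's likelihood ratio test). DES, desmin of muscle cells, had a log2 fold change of 0.48 (SE 0.13, adjusted p = 0.116 in edgeR) in Landrace and 0.27 (SE 0.16, adjusted p = 0.346 in edgeR) in Duroc. Of the 5 tested between breeds, KRT8, a keratin of epithelial cells, was higher in Duroc at both levels of DFI, with 25 ± 13.7 CPM against 9.26 ± 2.97 CPM (SD, n = 5 each) at low DFI, a log2 difference of 1.43 (SE 0.32, adjusted p = 0.0114 in edgeR), and 31.9 ± 6.82 CPM (SD, n = 6) against 8.68 ± 1.42 CPM (SD, n = 4) at high DFI, a difference of 1.88 (SE 0.34, adjusted p = 0.00325 in edgeR). LMNB1, a nuclear lamin, was lower in Duroc at low DFI (-0.36, SE 0.10, adjusted p = 0.0499 in edgeR).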

How the data were processed

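RNA of testis tissue from 20 boars was sequenced by the authors as non-stranded libraries (TruSeq RNA v2) with single reads. The deposited values are raw counts of reads per Ensembl gene, without normalization. Per the labels' processing notes, FastQC 0.10.1, TopHat2 2.0.12, SAMtools 1.1, HTSeq and edgeR 3.2.4 were used, and the study mapped to pig genome build 10.2. The lowest value in every library is 1, and whether this stands for 0 is not stated, so a fit with values of 1 set to 0 was added after the data were seen.

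Groups follow the labels for breed and DFI group. The analysis used edgeR 4.0.16 in R 4.3.3, with TMM normalization and genes above 1 CPM in at least 5 of 9 Landrace, 6 of 11 Duroc or 10 of all 20 boars. DFI groups were compared within each breed, and breeds within a DFI group in 1 fit of 4 groups, by quasi-likelihood F-tests, with p-values adjusted over all genes tested (Benjamini-Hochberg, threshold 0.05). Each SE is the absolute log2 fold change divided by the square root of its F statistic. It thus holds the same information as the test, also where no p is given. Levels are CPM from the fit of 20 boars. For single values, exact permutation tests (two-sided) were run on log2 CPM (0.5 CPM added), and correlations with 100000 permutations within groups, two-sided. Alternatives were a likelihood ratio test, DESeq2 1.42.0, RLE normalization, no filter, the number series and each boar left out. The study also used a likelihood ratio test, in edgeR 3.2.4, and its numbers of genes differ from those here. The models and correlations were tested on simulated data.

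The 5 members and all gene lists were chosen with earlier results of these data known. Named beside the members are, by rule, up to 4 genes with the smallest p of the actin and intermediate filament lists, genes called, and the 3 genes closest to each member. The coronins and the marker genes named for their calls were chosen after their values were seen. List genes were matched by symbol: 55 of 71 actin-binding and spectrin skeleton, 11 of 16 intermediate filament, 8 of 10 Sertoli and 5 of 7 Leydig genes. The others were 6 of 6 myoid, 3 of 5 endothelial, 3 of 5 macrophage and 4 of 7 red cell genes. Of the germ cells, 6 of 6 spermatogonium, 5 of 6 spermatocyte and 9 of 9 spermatid genes were matched. P-values between boars measure the spread between animals.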

Additional observations from a re-analysis of the deposited data

Results flagged for a closer look

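VIM in Landrace low 4 was at 257.6 CPM, apart from the other Landrace low boars, of which the next had 177.9 CPM. The gap took up 0.772 of the group's range, above the critical value of 0.71 for 5 values (Dixon's test). It was the one outlying value among 20 groups of a member, and chance alone gives about 1 in 20. The same boar had the highest ACTN4, ABLIM1 and CORO1B levels and the highest Leydig (4200 CPM) and myoid (161 CPM) marker sums of its group. Without it the Landrace log2 fold change of VIM was 1.22, against 1.07 with it.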

How the results depend on the processing

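Of 454 log2 fold changes and differences of the members recomputed under other settings, 442 kept their sign. Of those tested, 8 no longer passed the threshold and 4 newly passed it. The numbers of genes called moved most. For DFI in Landrace, 0 genes became 767 with the likelihood ratio test, 842 with DESeq2 and 1 without a filter, and 0 to 2 with each boar left out (2 without Landrace low 3). For DFI in Duroc, 2 became 376, 869 and 0, and 17 without Duroc low 5 but 0 without each other boar. Between breeds at low DFI, 720 became 1095 with DESeq2, 358 with the Landrace boars of the other number series only, and 455 (without Landrace low 5; 461 without Landrace low 1) to 749 with each boar left out. At high DFI, 838 became 1377 with DESeq2, 546 in a fit of the 10 high boars and 563 to 807. For the interaction, 0 became 2 with the likelihood ratio test or DESeq2 and 0 to 1. The cause was not tested.

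CORO1B in Landrace passed with DESeq2 too (adjusted p = 0.0381). Its low DFI breed difference of -0.0037 was 0.0022 in a fit of the 10 low boars and -0.1161 to 0.0892 with each boar left out, and its high DFI difference was -0.1664 to 0.1353. The interaction of DMTN was -0.6805 to 0.2359, positive without Landrace high 2, that of ACTN4 up to 0.1031 without Duroc low 5 and that of CORO1B up to 0.1428 without Landrace high 2. The 3 pairs of members became 2 (without Landrace low 4 or Duroc low 3) to 5 (without Duroc low 4), and r with DMTN ran from -0.104 to 0.168 (ACTN4), -0.484 to 0.212 (ABLIM1), -0.449 to 0.259 (CORO1B) and -0.402 to 0.161 (VIM). DMTN could not be tested between breeds in the fit of the 10 low boars, where it failed the filter. Depth limits DMTN most, with as few as 25 reads. The groups hold separate boars with 1 library each, so there are no pairs to analyse.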
